A study of Homo sapiens with 2 samples.

Results

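The mitochondrial ribosomal proteins are 78 of the 24124 genes in the deposited table. They were chosen by symbol: 49 genes named MRPL, after the large subunit of the mitochondrial ribosome, and 29 named MRPS, after the small one. They are listed with 490 of the 134092 transcripts, 329 for the large subunit names and 161 for the small ones. RNA was sequenced from SAS, an established oral cancer cell line. The ASC cells carried a stable lentiviral vector, pLKO.AS2, into which ASC had been placed, and the control cells carried pLKO.AS2 without it. Both were kept in DMEM with serum, G418 at 200 µg/ml and puromycin at 2 µg/ml, and each group had 1 library. ASC, the product of the gene PYCARD, is an adaptor protein of inflammasomes. The genotype label of the ASC cells names SAS, not ASC, as overexpressed, so the group was read from the vector label.

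With 1 library per group no difference here has a replicate check, and no test between the conditions was possible. The ASC library held 31426491 listed reads, against 31289581 in control cells. PYCARD was listed at 266.5 RPKM in ASC cells and 1.36 RPKM in control cells. RPKM is reads scaled to transcript length and to library depth, so it can be compared between genes. The epithelial markers looked up, KRT5, KRT14, KRT17, KRT18, CDH1, EPCAM and TP63, lay between 46.0 and 1363 RPKM in ASC cells and between 54.5 and 967.1 RPKM in control cells. PTPRC, PECAM1, VWF, COL1A1 and PDGFRA, markers of leukocytes, endothelium and fibroblasts, were all under 1 RPKM in both. The library kit does not mark strand, so reads cannot be assigned between genes that overlap on opposite strands. In RNA from a whole culture, fewer cells with a transcript and less of it per cell cannot be told apart either.

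Mitochondria carry their own ribosome, which makes the few membrane proteins of the respiratory chain that the mitochondrial genome still encodes. Its RNAs come from the mitochondrial genome, but every one of its proteins is encoded in the nucleus, made in the cytosol and imported. Some of these proteins have a counterpart in bacterial ribosomes and the others are specific to mitochondria. Their genes are scattered over the chromosomes. Promoters of nuclear genes for mitochondrial proteins are known to be bound by ETS-family factors such as GABP, by NRF1 and by YY1.

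The promoter windows of 5 members from the ends of the range of differences are shown because each holds letters of such an element, and because MRPL32 and MRPS24 on chromosome 7, MRPL30 on chromosome 2 and MRPL36 and MRPS30 on chromosome 5 recur in the results that follow. They were picked after their values were seen. Each runs from 250 bases before to 50 bases after the RefSeq start of the gene, on the strand of the gene, in build GRCh38.p14. The searched letters were CCGGAAG (ETS), GCGCANGCG (NRF1), AAGATGGCG (YY1) and TATAAA (the TATA box) on both strands, and no window of a member had searched letters of different motifs that shared bases. Capitals mark a match. The window of MRPL32 is chr7:42932126-42932425 on the plus strand, with the YY1 letters on its other strand at bases 28 to 36. The window of MRPS24 is chr7:43869468-43869767 on the minus strand, with the YY1 letters at bases 270 to 278. The window of MRPL30 is chr2:99180934-99181233 on the plus strand, with the ETS letters at bases 106 to 112 and the NRF1 letters at bases 136 to 144, both on its other strand. The window of MRPL36 is chr5:1799788-1800087 on the minus strand, with the NRF1 letters at bases 142 to 150 and the YY1 letters at bases 215 to 223, both on its other strand. The window of MRPS30 is chr5:44808697-44808996 on the plus strand, with the YY1 letters at bases 264 to 272.
MRPL32: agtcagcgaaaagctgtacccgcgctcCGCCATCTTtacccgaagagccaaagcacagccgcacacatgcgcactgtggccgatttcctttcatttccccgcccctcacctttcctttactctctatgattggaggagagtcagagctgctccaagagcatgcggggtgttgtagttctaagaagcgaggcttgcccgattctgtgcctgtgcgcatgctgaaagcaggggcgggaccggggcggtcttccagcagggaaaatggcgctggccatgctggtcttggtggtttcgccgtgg
MRPS24: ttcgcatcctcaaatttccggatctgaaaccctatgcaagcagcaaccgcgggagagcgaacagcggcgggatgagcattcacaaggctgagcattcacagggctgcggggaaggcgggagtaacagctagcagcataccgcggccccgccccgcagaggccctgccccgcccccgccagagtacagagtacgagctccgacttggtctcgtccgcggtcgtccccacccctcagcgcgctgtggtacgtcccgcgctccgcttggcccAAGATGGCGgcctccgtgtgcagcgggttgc
MRPL30: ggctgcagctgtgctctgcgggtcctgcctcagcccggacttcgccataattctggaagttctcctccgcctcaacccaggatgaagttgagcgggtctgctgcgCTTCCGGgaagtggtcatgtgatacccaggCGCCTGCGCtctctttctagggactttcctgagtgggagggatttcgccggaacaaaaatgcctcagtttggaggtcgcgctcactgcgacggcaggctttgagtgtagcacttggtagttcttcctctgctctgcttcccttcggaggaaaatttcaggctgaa
MRPL36: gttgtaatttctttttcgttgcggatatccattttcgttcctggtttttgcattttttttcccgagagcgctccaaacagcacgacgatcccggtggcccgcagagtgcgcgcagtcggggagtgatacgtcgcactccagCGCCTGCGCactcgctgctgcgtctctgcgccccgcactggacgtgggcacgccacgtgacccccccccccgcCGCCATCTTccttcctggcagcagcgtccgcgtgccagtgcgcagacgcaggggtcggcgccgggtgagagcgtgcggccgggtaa
MRPS30: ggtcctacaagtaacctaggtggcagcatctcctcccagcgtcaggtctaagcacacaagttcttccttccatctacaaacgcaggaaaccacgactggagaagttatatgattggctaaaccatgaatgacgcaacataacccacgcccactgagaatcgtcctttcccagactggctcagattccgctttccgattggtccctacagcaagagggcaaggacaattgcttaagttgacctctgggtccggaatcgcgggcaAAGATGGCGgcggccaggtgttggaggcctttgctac

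Of the 78 members, 69 had a RefSeq window. The letters of the ETS element were in the windows of 30 of the 69 (43.5%), against 23.6% of the 8933 other compared genes with a window. The YY1 letters were in 13 (18.8%), against 4.91% of the other compared genes. At least 1 of the ETS, NRF1 and YY1 motifs was found in 47 members (68.1%), against 39.8% of the other compared genes. The NRF1 letters stood closer to the background, in 14 members (20.3%) against 17.8%, and TATAAA was in 3 members (4.35%) against 7.88%. Over all 27236 RefSeq genes outside the family the shares were 12.1% for ETS, 9.0% for NRF1, 2.09% for YY1 and 14.01% for TATAAA. Members with the ETS, NRF1 or YY1 letters had log2 ratios on both sides of 0. With the ETS letters 19 lay above 0 and 11 below, with the NRF1 letters 7 and 7, and with the YY1 letters 8 and 5. The median log2 ratio of ASC over control cells was 0.05 with and 0.00 without the ETS letters, 0.00 with and 0.05 without the NRF1 letters, and 0.09 with and 0.01 without the YY1 letters. The YY1 letters were in the windows of both MRPL32 and MRPS24, which were lower in ASC cells, and of both MRPL36 and MRPS30, which were higher. A match of letters is a description of the window and not a binding site.

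All 78 members were expressed in both libraries, at 5.94 to 126.8 RPKM in ASC cells and 6.58 to 132.7 RPKM in control cells. The median was 39.8 RPKM in each. The whole family took 3722.5 RPKM in ASC cells and 3771.5 RPKM in control cells. The sum over all genes in the table was also lower in ASC cells, 477307 RPKM against 487224 RPKM in control cells. From the lower to the upper quartile the levels spanned a 2.18-fold range in ASC cells and a 2.31-fold range in control cells. Each protein that is part of the ribosome is present in it once or a few times.

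Among the small subunit genes MRPS15, the counterpart of bacterial S15, had the highest level, 126.8 RPKM in ASC cells and 119.5 RPKM in control cells. MRPS24, the counterpart of bacterial S3, followed with 105.9 RPKM in ASC cells and 132.7 RPKM in control cells, and stood above MRPS15 in control cells. MRPS34, a mitochondria-specific protein, had 105.2 RPKM in ASC cells and 101.0 RPKM in control cells. The highest large subunit genes were MRPL3, MRPL21 and MRPL37, of which the first 2 have bacterial counterparts. MRPL3 had 120.2 RPKM in ASC cells and 116.0 RPKM in control cells. MRPL21 had 109.5 and MRPL37 107.8 RPKM in ASC cells, against 107.5 and 104.4 RPKM in control cells.

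At the low end, MRPL50 stood alone with 5.94 RPKM in ASC cells and 6.58 RPKM in control cells. MRPL40 had 15.8 RPKM in ASC cells and 15.7 RPKM in control cells. MRPL46 was listed at 19.3 RPKM in ASC cells and 16.8 RPKM in control cells. All 3 encode proteins specific to the mitochondrial large subunit. The lowest small subunit genes were MRPS14, with 11.1 RPKM in ASC cells and 11.8 RPKM in control cells, MRPS36, with 11.9 RPKM in ASC cells and 11.6 RPKM in control cells, and MRPS17, with 13.9 RPKM in ASC cells and 14.2 RPKM in control cells. MRPS36 keeps its ribosomal name but its product is now known as a subunit of the 2-oxoglutarate dehydrogenase complex.

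**Figure D1:**
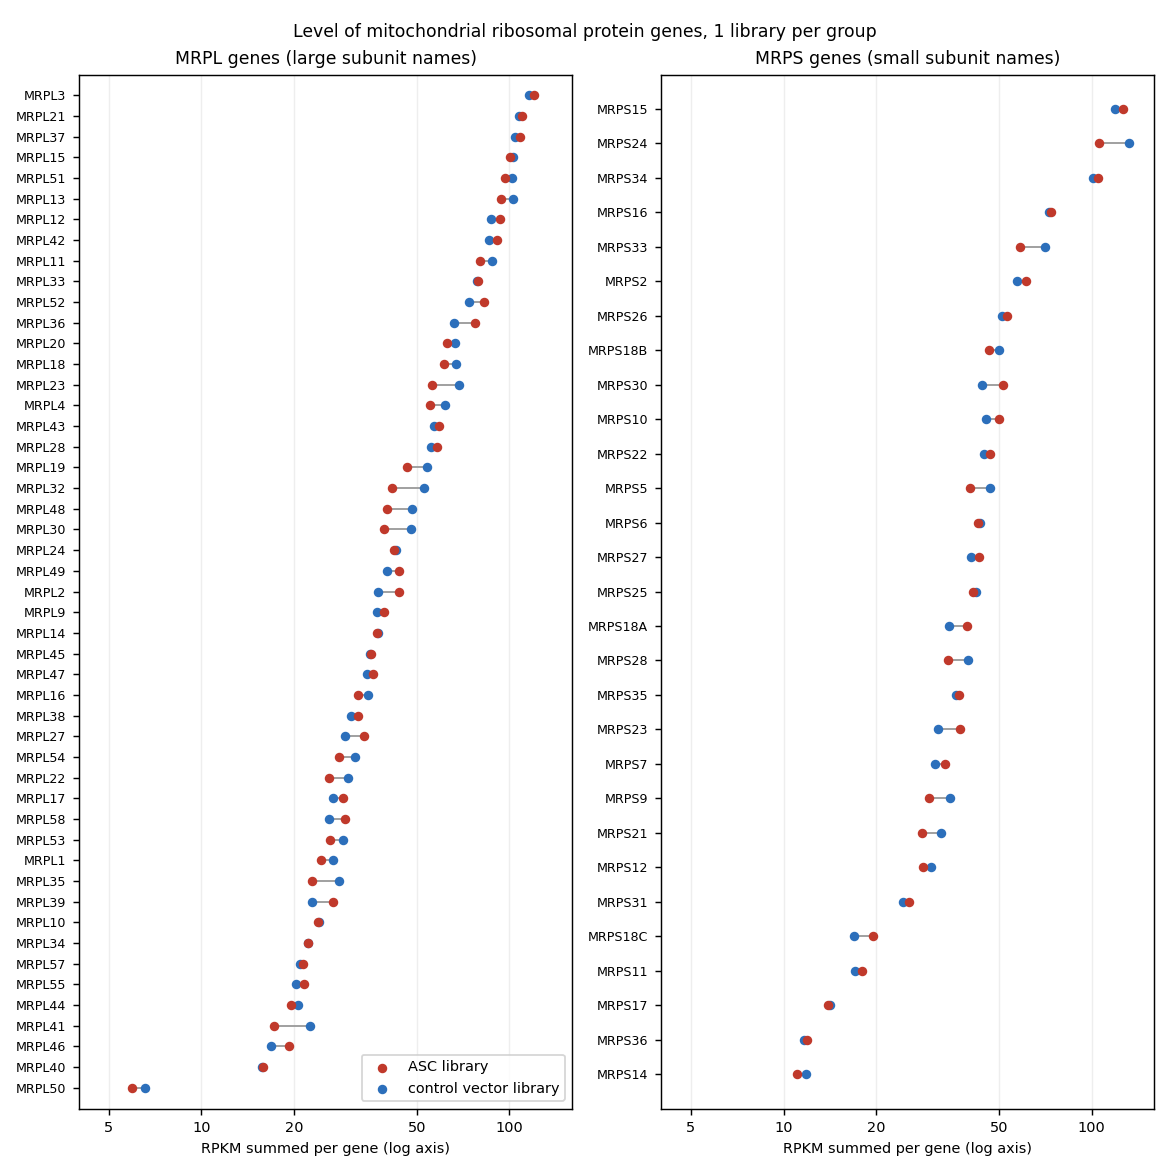
RPKM summed per gene (log axis) for the 49 MRPL genes on the left and the 29 MRPS genes on the right, with 1 red point for the ASC library and 1 blue point for the control vector library joined by a line. The paired points lie close together over the range from MRPL50 at 5.94 and 6.58 RPKM to MRPS15 and MRPS24 above 100 RPKM; the widest gaps include MRPL41 and MRPS24.

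The comparison asks whether the family as a whole, or its subunits, stood at another level in cells with added ASC. By its median the family did not stand apart from the rest of the genes, while a smaller share of its members passed the thresholds given below. The log2 ratio was taken with 1 RPKM added to each value, and the 12471 genes that reached 1 RPKM in 1 library or both served as the background. The members' median log2 ratio was 0.01, with quartiles of -0.12 and 0.08, beside a median of 0.01 and quartiles of -0.14 and 0.15 over all compared genes. Below 0 lay 36 of the 78 members, against 48.0% of all compared genes. Lower by at least 20% (a log2 ratio of -0.32 or less) were 3 members, MRPL41, MRPL32 and MRPS24, against 8.72% of all compared genes. Higher by at least 25% (a log2 ratio of 0.32 or more) were 0 members, against 8.88%. No member differed 2-fold in either direction, against 0.882% of all compared genes. The other 75 members thus lay between these thresholds. Of the 7187 protein-coding genes in the level range of the members, 86.9% did so.

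Large and small subunit names gave nearly equal medians. Of the 49 MRPL genes 25 lay above 0 and 24 below, with a median of 0.00 and 2 lower by at least 20%. Of the 29 MRPS genes 17 lay above 0 and 12 below, with a median of 0.03 and 1 lower by at least 20%. The difference of the medians, small minus large, was 0.03. Structures of the human mitochondrial ribosome place MRPS18A and MRPS30 in the large subunit. With these moved and MRPS36 left out, the difference was 0.02. Summed RPKM was 2407.9 in ASC cells and 2443.1 in control cells for the large subunit names, and 1314.7 in ASC cells and 1328.5 in control cells for the small ones.

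Members with a counterpart in bacteria and members specific to mitochondria differed a little in their medians in both subunits. Of the 46 with a bacterial counterpart 20 lay above 0 and 26 below, with a median of -0.02. Of the 31 specific to mitochondria 21 lay above 0 and 10 below, with a median of 0.06. The same order held in the large subunit, with medians of 0.05 for the 21 mitochondria-specific genes and -0.01 for the 30 others, and in the small subunit, with medians of 0.06 for the 10 mitochondria-specific genes and -0.02 for the 16 others. No test was made between these groups, whose genes are not replicates. The classes are also unevenly placed on chromosomes 2 and 7, where most members lay below 0. The members there all have bacterial counterparts except MRPS33, MRPL44 and MRPL53, and class and chromosome were not separated.

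Groups of proteins that sit together in the large subunit had members on both sides of 0. MRPL10, MRPL11 and MRPL12 form the base and arms of the flexible stalk that recruits translation factors. MRPL12, the arm of the stalk, had 93.4 RPKM in ASC cells and 87.4 RPKM in control cells (log2 ratio 0.09). MRPL11, at its base, had 80.3 RPKM in ASC cells and 88.0 RPKM in control cells (-0.13). MRPL10, which anchors MRPL12, had 23.9 RPKM in ASC cells and 24.0 RPKM in control cells (-0.01). Several copies of the stalk protein MRPL12 bind 1 MRPL10. The transcripts of MRPL12 and of MRPL11 were each more abundant than that of MRPL10 in both libraries. Whether transcript level follows the number of protein copies was not tested. Around the exit of the peptide tunnel, 4 of 8 genes lay above 0 and 4 below, with values from -0.28 for MRPL23 to 0.22 for MRPL39. In the central protuberance, where the large subunit meets the small one, 5 of 7 lay above 0 and 2 below, with a median of 0.07.

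The MRPS18 paralogs are 3 relatives of bacterial S18. MRPS18C takes the place of S18 in the small subunit and was counted with the bacterial counterparts, while MRPS18A and MRPS18B, which sit elsewhere, were counted as specific to mitochondria. MRPS18A, found in the large subunit, had 39.4 RPKM in ASC cells and 34.4 RPKM in control cells. MRPS18C had 19.5 RPKM in ASC cells and 17.0 RPKM in control cells, and its log2 ratio of 0.19 equalled that of MRPS18A. MRPS18B had 46.4 RPKM in ASC cells and 50.02 RPKM in control cells, a log2 ratio of -0.11. By reads alone MRPS18C stood nearer to 0, with 634 in ASC cells and 612 in control cells and a log2 ratio of 0.04 (95% interval -0.12 to 0.21). The intervals given here are exact (Clopper-Pearson) intervals of the ratio of reads scaled to listed reads, and they cover counting error only.

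The largest difference among the members was that of MRPL41, a mitochondria-specific protein of the large subunit. It had 17.2 RPKM and 775 reads in ASC cells, against 22.6 RPKM and 1019 reads in control cells. Its log2 ratio was -0.37 by RPKM and -0.40 by reads (95% interval -0.54 to -0.26). MRPL41 has 1 listed transcript and overlaps no other gene in the table (chromosome 9, 137551199 to 137552555, hg38). Its 50 nearest compared genes had a median of 0.02, so MRPL41 was low where its neighbours were not.

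MRPL32, a zinc-binding protein of the large subunit that the m-AAA protease trims after import, came next. It had 41.4 RPKM in ASC cells and 52.8 RPKM in control cells, a log2 ratio of -0.34. Its reads, 2212 in ASC cells and 2548 in control cells, gave a smaller difference of -0.21 (95% interval -0.29 to -0.13). The gap between both measures went with a shift among its transcripts, described further on. MRPL32 overlaps the gene PSMA2 in the table, and the library kit does not mark strand. MRPS24 had 2708 reads in ASC cells and 3395 in control cells, and its log2 ratio was -0.32 by RPKM and -0.33 by reads (95% interval -0.41 to -0.26). MRPS24 shares exons with the readthrough gene URGCP-MRPS24, and the estimated reads of both depend on how shared reads were divided.

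Of the 12 members with the smallest ratios, 7 belong to the large and 5 to the small subunit by name. MRPL30, MRPL35 and MRPL23, all counterparts of bacterial proteins, each had a log2 ratio of -0.28. MRPL30 had 39.1 RPKM in ASC cells and 47.8 RPKM in control cells. MRPL35 had 22.8 RPKM in ASC cells and 27.9 RPKM in control cells. MRPL23, at the exit of the peptide tunnel, had 56.1 RPKM in ASC cells and 68.5 RPKM in control cells. MRPL48, of the central protuberance, had 40.2 RPKM in ASC cells and 48.4 RPKM in control cells (-0.26). MRPS33, specific to the mitochondrial small subunit, had 58.5 RPKM in ASC cells and 70.4 RPKM in control cells (-0.26). MRPS9, MRPS5 and MRPL19, each with a bacterial counterpart, followed with log2 ratios of -0.22, -0.22 and -0.21. MRPS9 had 29.6 RPKM in ASC cells and 34.6 RPKM in control cells, and MRPS5 had 40.2 RPKM in ASC cells and 46.9 RPKM in control cells. MRPL19 had 46.6 RPKM in ASC cells and 54.1 RPKM in control cells. MRPS28 had 34.2 RPKM in ASC cells and 39.6 RPKM in control cells (-0.21), and a difference of -0.35 by reads. For all 12 the interval of the reads lay below 0, as it did in 27.0% of all compared genes, but these 12 were chosen by their ratio.

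At the upper end no member was higher by 25%. MRPS23, specific to the mitochondrial small subunit, had 37.3 RPKM in ASC cells and 31.7 RPKM in control cells. MRPL36, the small zinc-binding counterpart of bacterial L36, had 77.5 RPKM in ASC cells and 66.1 RPKM in control cells. MRPS30 had 51.7 RPKM in ASC cells and 44.1 RPKM in control cells. The log2 ratio of each of these was 0.23. For MRPS23 the ratio by reads was 0.11 (95% interval 0.01 to 0.21), and for MRPL36 and MRPS30 it was 0.22 (95% intervals 0.12 to 0.32 and 0.15 to 0.29).

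MRPL2, a counterpart of the bacterial protein next to the peptidyl transferase centre, had 43.7 RPKM in ASC cells and 37.4 RPKM in control cells (0.22). MRPL39 had 26.7 RPKM in ASC cells and 22.9 RPKM in control cells (0.22). MRPL27 and MRPL46, both of the central protuberance, each had a log2 ratio of 0.19. MRPL27 had 33.6 RPKM in ASC cells and 29.2 RPKM in control cells. MRPL58, a peptidyl-tRNA hydrolase built into the large subunit, had 29.2 RPKM in ASC cells and 25.9 RPKM in control cells (0.17). MRPL52 had 83.0 RPKM in ASC cells and 73.8 RPKM in control cells (0.17). MRPS10, the counterpart of bacterial S10, had 50.1 RPKM in ASC cells and 45.6 RPKM in control cells (0.13). With MRPS18A and MRPS18C these make the 12 members with the largest ratios, 7 of the large and 5 of the small subunit by name. The interval of the reads lay above 0 in 8 of these 12 and included 0 in MRPL27, MRPL58, MRPL52 and MRPS18C. Over all 78 members it lay below 0 in 27 and above 0 in 16, so more lay below than above. Of the 12471 compared genes it lay below 0 in 3366 (27.0%) and above 0 in 3554 (28.5%), the other order. The summed reads of the members had a log2 ratio of -0.026 (95% interval -0.036 to -0.016). It was -0.039 (-0.052 to -0.027) for the large subunit names and -0.005 (-0.021 to 0.012) for the small ones. By the ratio alone, 42 members lay above 0 and 36 below in RPKM, which is scaled to transcript length. In CPM, which is reads scaled to depth only, 39 lay below 0. The cause of the order of the intervals was not tested. Reads per member ranged from 509 to 7110.

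Cytosolic ribosomal protein and respiratory chain genes had lower medians in the same pair of libraries, while few of them passed the threshold. Among 82 compared cytosolic ribosomal protein genes 81 lay below 0 and 1 above, with a median of -0.11 and 6 lower by at least 20%. Their median level was 1493 RPKM in ASC cells and 1639 RPKM in control cells. Among 78 nuclear-encoded respiratory chain genes 58 lay below 0 and 20 above, also with a median of -0.11, with 8 lower by at least 20% and 1 higher by at least 25%. Over all compared genes, 48.0% lay below 0, 8.72% were lower by at least 20% and the median was 0.01. The mitochondrial ribosomal proteins, with 36 below 0 and 42 above, had a median of 0.01. No test between the families was made, since genes are not replicates.

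**Figure D2:**
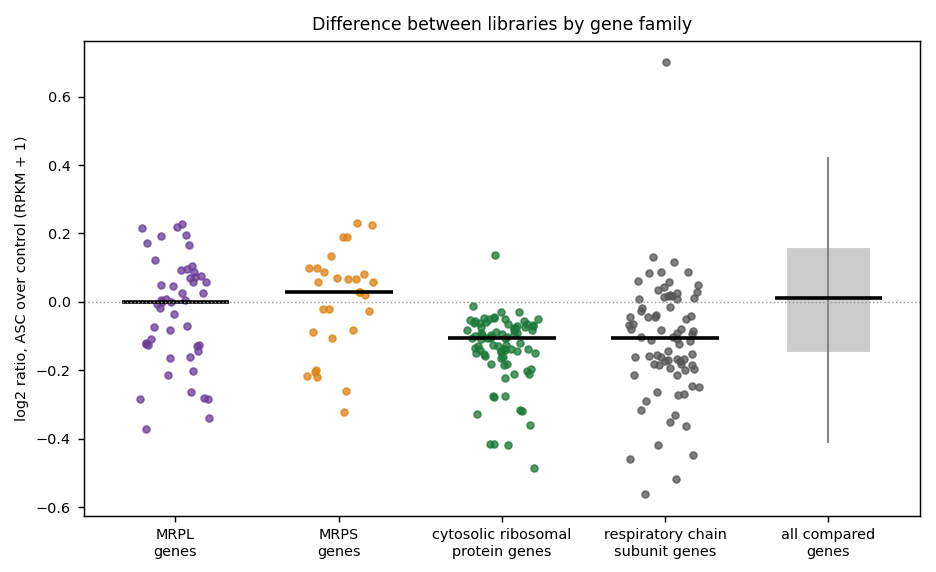
Log2 ratio of ASC over control cells, with 1 RPKM added, for MRPL genes, MRPS genes, cytosolic ribosomal protein genes and nuclear-encoded respiratory chain genes (1 point per compared gene, black line at the median), and for all compared genes, where the grey box spans the quartiles and the thin line the 5th to 95th percentile. The medians are 0.00 for MRPL and 0.03 for MRPS genes, -0.11 for each of the other families and 0.01 for all compared genes.

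Genes that build or serve the mitochondrial ribosome lay on both sides of 0. Of 5 ribosomal proteins with other names, DAP3, PTCD3, AURKAIP1, CHCHD1 and GADD45GIP1, 2 lay above 0 and 3 below. GADD45GIP1, a large subunit protein, had 25.2 RPKM in ASC cells and 31.5 RPKM in control cells (-0.31). Of 17 translation factors 9 lay above 0 and 8 below with a median of 0.02, and the largest differences were those of the initiation factors MTIF3 (-0.28) and MTIF2 (-0.25) and of the mRNA-stabilising protein LRPPRC (-0.22). Of 25 assembly and rRNA modification genes, MRPS36 among them, 11 lay above 0 and 14 below with a median of -0.01. MRM2, which methylates the large ribosomal RNA, had 36.4 RPKM in ASC cells and 25.3 RPKM in control cells (0.51). TRMT61B, another methyltransferase, had 11.9 RPKM in ASC cells and 15.8 RPKM in control cells (-0.38). MRM2 lies on chromosome 7 and TRMT61B on chromosome 2. MTG1, a GTPase of assembly, had a log2 ratio of 0.30.

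Of 22 aminoacyl-tRNA synthetase and amidotransferase genes, 8 lay above 0 and 14 below with a median of -0.05. The largest differences were -0.33 for GATB, 0.24 for WARS2 and 0.21 for RARS2. Of 10 genes of mitochondrial DNA maintenance and transcription, 4 lay above 0 and 6 below. The termination factor gene MTERF1 had 5.58 RPKM in ASC cells and 8.65 RPKM in control cells (-0.55), POLRMT, the mitochondrial RNA polymerase, had a log2 ratio of -0.31, and SSBP1, which binds single-stranded mitochondrial DNA, had -0.24. Among the 7 compared regulators of nuclear genes for mitochondria, 5 lay above 0 and 2 below. GABPB1 (0.20) and NRF1 (0.17) were above 0 and GABPA (-0.16) below. The ribosomal RNAs and mRNAs of the mitochondrial genome itself could not be compared with the members, since all 15 transcripts of that genome together held 279 reads in ASC cells and 308 in control cells. Whether such reads had been filtered is not given in the sources used here.

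The members are spread over 21 chromosomes, and their ratios differed by chromosome. On chromosome 7 all 4 members, MRPL32, MRPS24, MRPS33 and MRPS17, lay below 0, with a median of -0.29. The 624 other compared genes of chromosome 7 had a median of -0.12, and 68.4% of them lay below 0. On chromosome 2, 7 of 8 members lay below 0, with a median of -0.22, and the 825 other compared genes had a median of -0.15, with 73.5% below 0. The members there were MRPL19, MRPL30, MRPL33, MRPL35, MRPL44, MRPL53, MRPS5 and MRPS9. MRPL33 was the 1 member of chromosome 2 that did not lie below 0.

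Chromosomes 2 and 7 hold 12 of the 78 members but 8 of the 12 smallest ratios, 5 on chromosome 2 and 3 on chromosome 7. They hold 0 of the 12 largest, which come from 7 chromosomes. Of the members on chromosomes 2 and 7 together 11 of 12 lay below 0, with a median of -0.22, and of the other 66 members 25 did, with a median of 0.04. On chromosome 8 all 3 members lay below 0, with a median of -0.12, beside -0.10 for the other genes of the chromosome. Chromosomes 9 and 11 went the other way from their genes. On chromosome 9, 2 of 3 members lay below 0, with a median of -0.13, beside 0.04 for the other genes. On chromosome 11, 4 of 7 lay below 0, with a median of -0.11, beside 0.03 for the other genes. On chromosome 17, 7 of 8 members lay above 0, with a median of 0.10, beside 0.05 for the other genes. MRPL58, MRPS23 and MRPL27 are among them. On chromosome 5, 4 of 5 lay above 0, with a median of 0.08 beside -0.01 for the other genes.

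**Figure D3:**
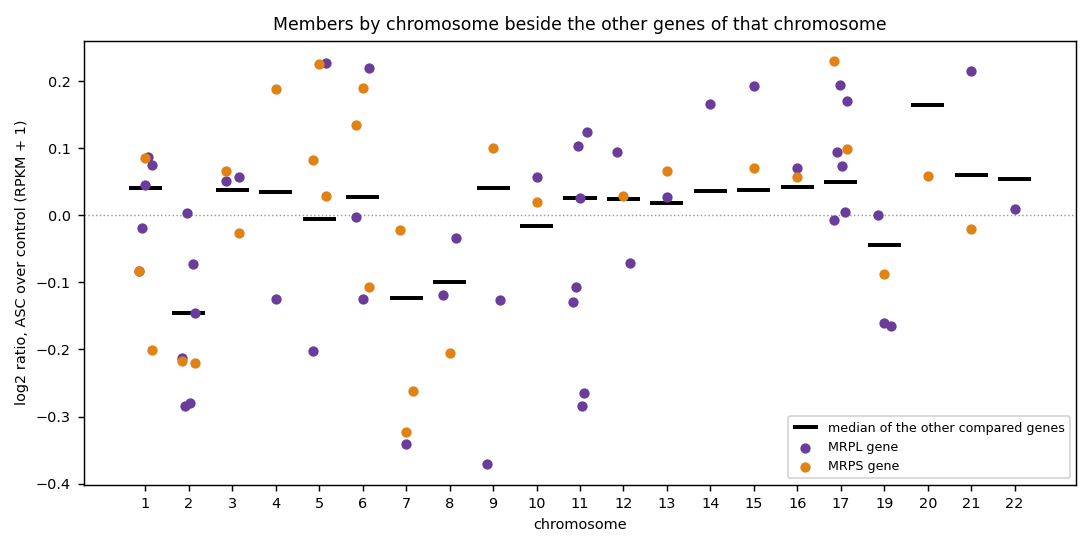
Log2 ratio of ASC over control cells, with 1 RPKM added, for each member by chromosome (purple for MRPL, orange for MRPS genes), with a black bar at the median of the other compared genes of that chromosome. Members of chromosomes 2, 7 and 8 lie mostly below 0, where the bars also stand below 0 at -0.15, -0.12 and -0.10.

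The same was seen at closer range. The median of the 50 nearest compared genes, members left out, ran from -0.25 to 0.12 over the members. Across the 78 members it had a Pearson correlation of 0.55 and a Spearman correlation of 0.45 with the member's own ratio, and across 12390 other compared genes these were 0.27 and 0.27. The other genes were not matched to the members in level, so the correlations of both sets are not directly comparable. Other genes were admitted from 1 RPKM, while the lowest member had 5.94 RPKM in ASC cells and 6.58 RPKM in control cells. All these points share the same pair of libraries and neighbouring members share most of their neighbours. Across the members the Pearson correlation of the ratio was 0.02 with the length and 0.02 with the GC content of the leading transcript, and -0.01 with the level. After subtraction of the neighbours' median the SD of the members' ratios was 0.13, against 0.15 before it, and 1 member, MRPL41, remained lower by at least 20%. Of all genes, 8.72% were lower by at least 20% before subtraction and 7.96% after it. The median of the chromosome 2 members was then 0.00 and that of the chromosome 7 members -0.13. The cause of the shift that members share with neighbouring genes was not tested.

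Some members departed from their neighbours. MRPL23 and MRPL48 on chromosome 11 lay at -0.28 and -0.26, where the neighbours had medians of 0.04 and 0.03. MRPL33 had 78.9 RPKM in ASC cells and 78.7 RPKM in control cells (0.00), although its neighbours on chromosome 2 had a median of -0.21. MRPL2 on chromosome 6 lay at 0.22 with neighbours at 0.00. MRPL1 on chromosome 4 and MRPS21 on chromosome 1 lay at -0.12 and -0.20, where the neighbours had medians of 0.11 and 0.04.

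**Figure D4:**
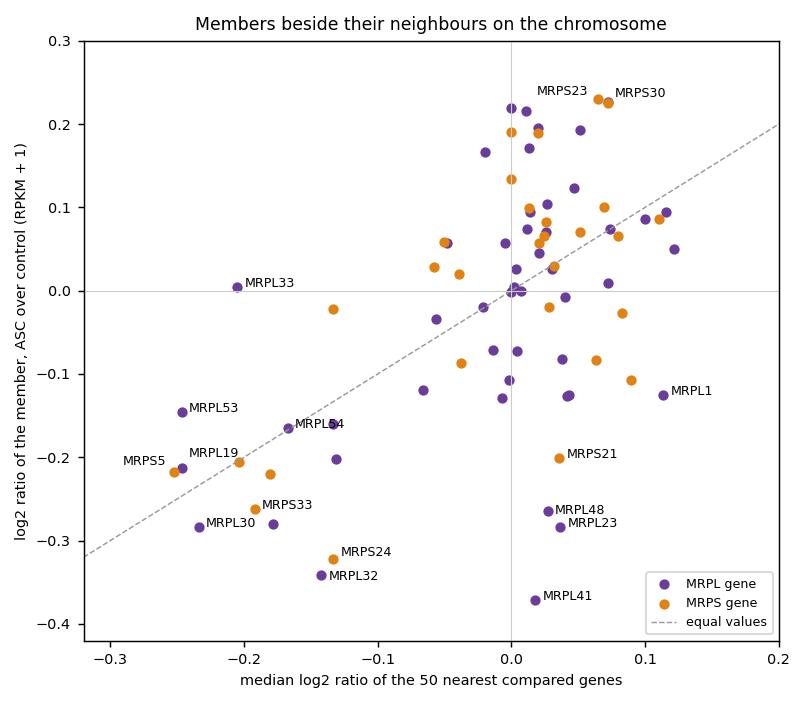
Log2 ratio of each member (vertical axis) against the median log2 ratio of its 50 nearest compared genes (horizontal axis), 1 point per gene, purple for MRPL and orange for MRPS genes, with a dashed line of equal values. MRPS5, MRPL19 and MRPL30 lie low with their neighbours, whereas MRPL41, MRPL23 and MRPL48 lie low where the neighbours are at 0.02 to 0.04.

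By reads, most members were carried by 1 transcript. The leading transcript, the one with the most estimated reads over both libraries, held over 50% of the gene's reads in both libraries in 66 members and over 90% in 31. Its median share was 87.4% in ASC cells and 86.3% in control cells. By RPKM, which is scaled to length, the share was smaller in some members and larger in others. In MRPS23 it was 13.8% in ASC cells and 15.8% in control cells by RPKM, against 60.9% and 64.6% by reads. In MRPL22 it was 92.2% and 92.1% by RPKM, against 78.1% and 76.1% by reads. In 67 members the share of reads differed by less than 5 percentage points between the libraries, and in 2 by more than 10. Of the 11107 compared genes with at least 100 reads in both libraries, genes with 1 transcript included, 71.8% differed by less than 5 points and 10.1% by more than 10. These genes were not matched to the members in reads, of which each member had at least 509, so the shares are not directly comparable. The leading transcript was protein coding in 77 members, and in MRPS11 it was annotated as a retained intron.

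The largest difference in share was that of MRPL40, in which the leading transcript held 40.0% of the reads in ASC cells (exact 95% interval 36.1 to 44.0%) and 58.1% in control cells (54.3 to 62.0%). The level of the gene hardly differed, with 15.8 RPKM in ASC cells and 15.7 RPKM in control cells. In MRPL32 the leading transcript held 44.1% of the reads in ASC cells and 55.1% in control cells, with intervals that did not overlap. In MRPL24, of the tunnel exit, it held 44.2% in ASC cells and 52.9% in control cells. In MRPL53 it held 57.3% in ASC cells and 65.4% in control cells, and in MRPL23 it held the larger share in ASC cells, 64.8% against 56.6% in control cells. Reads of transcripts that share exons are divided by estimation, and the intervals do not cover that error.

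**Figure D5:**
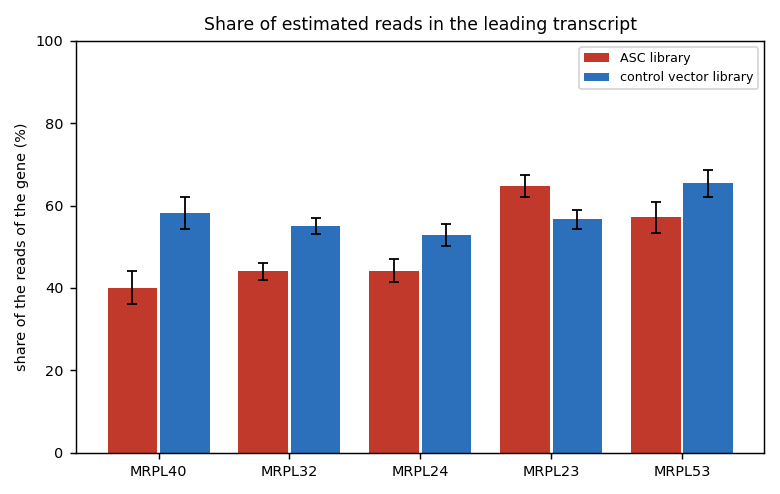
Share of the gene's estimated reads held by its leading transcript (percent, from 0) in ASC cells (red) and the control vector library (blue) for the 5 members with the largest difference in share. Error bars are exact 95% binomial intervals and cover counting error only; the share is lower in ASC cells in MRPL40, MRPL32, MRPL24 and MRPL53 and higher in MRPL23.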

How the data were processed

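Per the file headers, the authors deposited estimated counts of reads and RPKM for each transcript in both libraries. Per the labels' protocols, RNA came from a TRIzol extraction, poly(A) RNA was sequenced and the library kit was TruSeq. Per the submitters' processing notes, positions refer to hg38. Aligner, quantifier and annotation: not given in the sources used here. Of the transcript identifiers, 98.4% had the same version in GENCODE release 29. Ends are printed 1 base lower than deposited, as annotated.

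RPKM and reads were summed per gene, after 284 of 285 names turned into dates had been restored. Thresholds were 20% lower, 25% higher and 2-fold. The members and gene lists were chosen with earlier results of these data known. Genes named with values are the 12 smallest and 12 largest ratios, the 3 highest and 3 lowest levels per subunit, the 5 largest transcript shifts, the stalk and MRPS18 genes and the 3 largest differences per list. Other genes named were chosen after their values were seen. The calculation was tested on simulated data. Tools were Python 3.11.15 with pandas 2.3.3 and scipy 1.17.1, R 4.3.3 and edgeR 4.0.16 (TMM factors only). Promoter sequences are from RefSeq.

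Alternatives were pseudocounts of 0.1 and 3 RPKM, filters of none and of 5 RPKM, TMM factors on rounded counts, centring on the median, reads scaled to depth only (CPM), the highest transcript, subtraction of the neighbours' median, members free of overlaps and a fold of 1.5. Leaving out members with fractional reads, and members on chromosomes 2 and 7, was added after seeing the data.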

Additional observations from a re-analysis of the deposited data

How the results depend on the processing

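Each group had 1 library, so leaving out a replicate was not possible. No paired analysis was possible because each group has 1 library and no test was made. Depth limits the members with few reads most: with 509 to 7110 reads per member, the 95% interval of the log2 ratio of reads was 0.36 wide at most and 0.096 at least. The count of members below 0 was between 36 and 40 of 78 under the alternatives that kept all members, and 15 of 38 without members that overlap another gene.

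The median of the members was -0.0030 after centring, 0.029 without overlapping members and 0.038 without chromosomes 2 and 7. The count of members lower by at least 20% was 6 with the highest transcript (MRPL30, MRPL32, MRPL35, MRPL41, MRPL53 and MRPS28). The share of all genes compared in that setting was 9.71%. After subtraction of the neighbours' median the count was 1, MRPL41, against 7.96% of all genes. MRPL41 was also the 1 such member of 38 without overlapping members and of 66 without chromosomes 2 and 7, against 8.72%. At a fold of 1.5 the count was 0, and no share over all genes was computed. With a pseudocount of 3 RPKM it was 2, without MRPS24, against 4.74% of all genes. In CPM it was 3, with MRPS28 in place of MRPL32, against 11.2%. The count higher by at least 25% was 1 with the highest transcript, MRPL40, against 11.3% of all genes. The median of the small minus the large subunit was 0.077 in CPM and 0.073 without overlapping members, against 0.029 in the main analysis. The median of the chromosome 2 members was -0.0027 after subtraction of the neighbours' median and -0.18 without overlapping members, and that of the chromosome 7 members was -0.13 after subtraction. Of 360 ratios of the 40 named members under 9 settings, 346 kept their sign and 14 took the other sign. The pseudocounts and filters could not change the sign of a member, so many of the 346 were fixed in advance. Most changes of sign came with subtraction of the neighbours' median, among them those of MRPL19 and MRPS5. The cause of these shifts was not tested.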
